A study of Mus musculus with 12 samples.

Results

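The 8 genes described here encode the canonical Notch ligands of the mouse, *Jag1*, *Jag2*, *Dll1* and *Dll4*, and the receptors, *Notch1*, *Notch2*, *Notch3* and *Notch4*. They were taken by symbol from a count table of 28686 gene symbols, and all 8 were among the 18459 genes with enough reads to be tested. RNA-seq of the cochlear sensory epithelium was carried out at P6 on 6 *Sox2*CreER/+*Jag1*fl/fl mutants, which the labels write as Sox2CreER;Jag1-/-, and 6 *Sox2*+/+ controls. The labels give the strain as C57BL/6;129SV, whereas the study's methods name C57bl6/J for the CreER line and FVB/n for the floxed line. Every pup received tamoxifen on P0 and P1. In the mutants tamoxifen activates a CreER recombinase made from the *Sox2* locus, which is active in supporting cells, and the recombinase removes the floxed part of *Jag1* there. The controls carried no CreER allele and were heterozygous or homozygous for floxed *Jag1*, so the genotypes differed at *Sox2* as well as at *Jag1*, and an effect of the lost *Sox2* copy or of CreER cannot be told apart from that of the *Jag1* deletion. The question for these genes was how abundant each was next to the others, and whether another ligand or a receptor rose where *Jag1* had been deleted.

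Notch signalling passes between touching cells. A ligand on one cell binds a receptor on its neighbour, the receptor is cut by ADAM proteases and then by gamma-secretase, and the freed intracellular domain enters the nucleus and joins RBPJ and Mastermind to switch on genes such as the *Hes* and *Hey* repressors. In the embryonic cochlea *Jag1* helps to set aside the prosensory cells, and *Dll1* and *Jag2* on hair cells hold their neighbours back from the hair cell fate. *Jag1* stays on in supporting cells after birth. *Dll4*, *Notch4* and *Notch3* are best known from blood vessels, the first in endothelial cells together with *Notch4*, and *Notch3* in the mural cells around them. The study also cites reports of *Notch1*, *Notch2* and *Notch3* in the organ of Corti, and names each as a possible receptor for JAG1 there.

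The ligands bind the receptors in part through a cysteine-rich module, the DSL domain. A coding stretch over it is shown because all 4 ligands carry it. Each is the coding strand from the first to the last of 7 cysteine codons, matched by the same pattern in all 4 ligands. The pattern set the ends of the stretch, not an annotated domain border, so the last cysteine may lie past the domain. The stretch was read from the annotated coding transcript of GENCODE M21 (GRCm38), with the 7 cysteine codons in capitals.
Jag1: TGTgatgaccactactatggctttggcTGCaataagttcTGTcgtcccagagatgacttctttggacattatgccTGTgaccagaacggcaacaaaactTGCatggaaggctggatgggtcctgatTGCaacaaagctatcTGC
Jag2: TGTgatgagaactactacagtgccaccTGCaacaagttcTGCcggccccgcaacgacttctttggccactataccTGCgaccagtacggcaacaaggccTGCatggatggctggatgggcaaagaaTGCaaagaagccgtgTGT
Dll1: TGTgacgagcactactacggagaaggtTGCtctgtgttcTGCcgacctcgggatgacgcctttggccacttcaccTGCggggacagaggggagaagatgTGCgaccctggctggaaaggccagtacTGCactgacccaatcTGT
Dll4: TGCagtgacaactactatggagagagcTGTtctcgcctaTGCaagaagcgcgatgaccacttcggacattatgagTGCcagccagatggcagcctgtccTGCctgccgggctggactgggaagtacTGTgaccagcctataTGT
The stretch spanned coding bases 559 to 702 of *Jag1*, 592 to 735 of *Jag2*, 532 to 675 of *Dll1* and 526 to 669 of *Dll4*, 144 bases in each. *Jag1* and *Jag2* were the closest pair, with 107 of 144 bases the same (74.3%). *Jag1* shared 60.4% of aligned bases with *Dll1* and 59.6% with *Dll4*, and the other 3 pairs shared between 57.9% and 62.5%. Over whole annotated transcripts the longest run of identical bases between any 2 of the 8 genes was 25, between *Notch1* and *Notch2*, far below the read length of 100 nucleotides.

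*Jag1* lies on the minus strand at chr2:137081456-137116644, *Jag2* on the minus strand at chr12:112907819-112929776, *Dll1* on the minus strand at chr17:15367354-15376872 and *Dll4* on the plus strand at chr2:119325784-119335962. Of the receptors, *Notch1* lies on the minus strand at chr2:26457903-26516663, *Notch2* on the plus strand at chr3:98013527-98150361, *Notch3* on the minus strand at chr17:32120820-32166852 and *Notch4* on the plus strand at chr17:34564268-34588503 (GRCm38, GENCODE M21). Exons of 5 of the 8 genes overlap those of a non-coding or unclassified transcript. The largest overlap was in *Dll1*, where *A930024N18Rik* on the opposite strand covers 867 bases, 20.6% of the exons. That transcript was counted at 36 to 54 reads per library, against 109 to 193 for *Dll1*. No strand setting is stated, so how reads from the overlapping bases were counted is not known, and *Dll1* may be over- or undercounted there. The overlaps in *Dll4* (*Gm14207*), *Notch1* (*0610009E02Rik* and *Gm13568*), *Notch2* (*Gm42820*) and *Notch3* (*Gm17276*) covered between 2.91% and 7.50% of their exons.

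Between 28498549 and 36134983 reads per library were counted on genes. Summed markers of hair cells and of supporting cells were detected in every library, and none of the listed genes was at 0 over all libraries together. The libraries also held RNA of other tissues, and the mutants exceeded the controls in mean log2 marker level by 1.67 for neurons and by 1.59 for Schwann cells (two-sided exact permutation p = 0.00866 and 0.00433, both 0.0476 after adjustment over 11 marker lists). Summed neuron markers ranged from 204 to 384 CPM in controls and from 270.3 to 1542 CPM in mutants, and summed Schwann cell markers from 478 to 1577 and from 1272 to 6529 CPM. Supporting cell markers were 0.14 lower (exact permutation p = 0.0195, adjusted 0.0714), with 5 of 17 at an unadjusted edgeR p under 0.05 and none called. Over all tested genes 10.6% were under that unadjusted threshold. The list includes *Sox2*, of which the mutants lack a copy by genotype, and its part in the lower mean was not tested. In bulk tissue fewer cells of a type and less RNA per cell cannot be told apart. By microscopy at P6 the study counted substantially fewer Hensen's cells, a supporting cell type, in such mutants and similar numbers of hair cells. It found no significant difference in spiral ganglion neurons per area. The part of these cell numbers in the marker levels was not tested.

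Of the 8 genes, only *Jag1* passed the test for a difference between the genotypes, and it fell to 35.7% of the control level. In controls *Jag1* ranged from 83.0 to 118 CPM (reads scaled by library total and TMM factor, as CPM) with a median of 104, and in mutants from 24.2 to 42.9 CPM with a median of 37.5. Every mutant thus lay below every control, and the lowest control was still well above the highest mutant. The means were 102 ± 14.7 and 36.4 ± 6.56 CPM (SD, n = 6 each). The log2 fold change was -1.48 (95% interval -1.76 to -1.21, standard error 0.13, edgeR quasi-likelihood adjusted p = 0.000258; exact permutation p = 0.00216, the smallest that 6 against 6 mice can give). The counts cover all annotated exons of *Jag1* together, and the floxed exons are not named in the sources used here, so transcript left in cells without recombination and reads from the undeleted exons of a recombined allele cannot be told apart in the remainder. With the neuron and Schwann cell marker levels of each library in the edgeR model, the log2 fold change was -1.43 and its adjusted p was 0.0833, so the call was lost while the size moved little. In that model the number of genes called fell from 35 to 1, *Syt6*, named here after its value was seen. The part of neuron and Schwann cell RNA in the difference was not tested beyond that fit.

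For comparison, 0.190% of all tested genes were called, 35 of 18459, and the values of the genotypes did not overlap for 0.997% of them. Among the Notch genes 1 of 8 was called and 1 of 8 did not overlap, *Jag1* in both cases. At an unadjusted p under 0.05 the share of all genes was 10.6%, and among the 8 it was again *Jag1* alone. The fitted change was negative for 7 of the 8, with a median of -0.14 on the log2 scale, while over all tested genes 49.1% were lower and the median was 0.00.

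**Figure D1:**
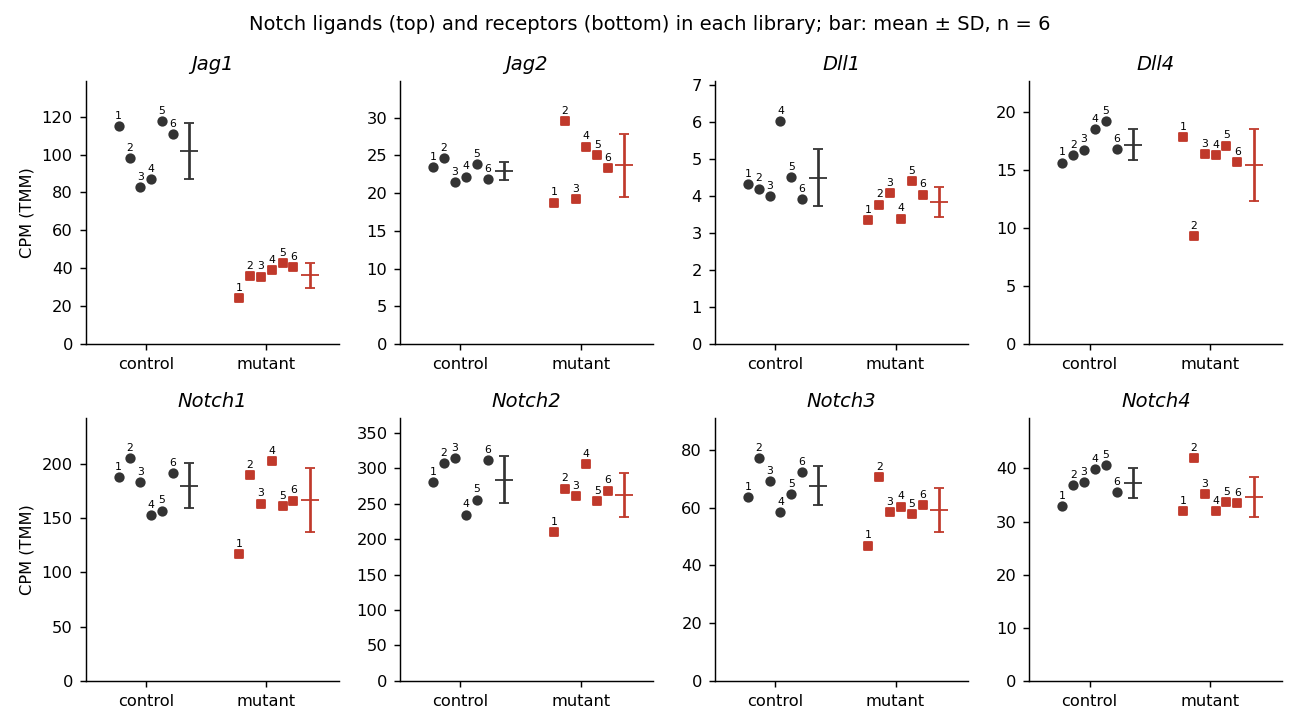
Level of each ligand (top) and receptor (bottom) in CPM, with the axis starting at 0; each point is 1 library, its number is the replicate, and the bar beside each genotype is the mean ± SD of 6. The 6 *Jag1* values of mutants, 24.2 to 42.9, sit below all 6 of controls, 83.0 to 118, and for the other 7 genes the points of the genotypes overlap.

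The other 3 ligands did not rise beyond the spread between mice. *Jag2*, the closest relative of *Jag1* and a hair cell ligand, ranged from 21.5 to 24.6 CPM in controls (median 22.8) and from 18.7 to 29.5 in mutants (median 24.2). The mutants were the more scattered, with 2 below, 1 inside and 3 above the range of the controls. The means were 22.9 ± 1.23 and 23.7 ± 4.16 CPM (SD, n = 6 each). The log2 fold change was 0.05 (95% interval -0.17 to 0.26, edgeR adjusted p = 0.943), so that *Jag2* in mutants lay between 88.8% and 120% of the control level, and without mutant 2, which had the highest value, the log2 fold change was -0.03.

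*Dll1*, the other ligand of nascent hair cells, was the rarest of the 8. Controls ranged from 3.92 to 6.01 CPM (median 4.25) and mutants from 3.34 to 4.40 CPM (median 3.90). The groups overlapped, and the control range owed its top to control 4, since the other 5 controls lay between 3.92 and 4.51 CPM. The log2 fold change was -0.23 (95% interval -0.50 to 0.04, edgeR adjusted p = 0.592; exact permutation p = 0.067). It was -0.13 without control 4. With at most 193 reads per library, counting error alone gave a coefficient of variation of 8.52%, against 17.3% observed among controls and 10.8% among mutants. Without control 4 the controls had 5.73%, no more than counting error.

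*Dll4*, a ligand of endothelial cells, ranged from 15.6 to 19.2 CPM in controls (median 16.8) and from 9.31 to 17.9 CPM in mutants (median 16.4). Mutant 2 stood alone at 9.31 CPM and the other 5 mutants, from 15.7 CPM upwards, lay among the controls. The log2 fold change of *Dll4* was -0.16 (95% interval -0.43 to 0.12, edgeR adjusted p = 0.787), and -0.05 without mutant 2. Endothelial markers were 0.10 lower in mutants (exact permutation p = 0.0325, adjusted 0.0762), and mural markers 0.14 lower (exact permutation p = 0.0974); their part in the values of *Dll4* was not tested.

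The intervals bound how much a rise in another ligand could have made up for *Jag1*. Per kilobase of exon, the fitted loss of *Jag1* was 11.2 CPM. The upper 95% limits allowed a rise of 0.663 CPM per kilobase for *Jag2*, 0.380 for *Dll4* and 0.0322 for *Dll1*, or 5.90%, 3.39% and 0.287% of the *Jag1* loss. All 3 limits added up to 9.57% of it. The limits hold for the fit without covariates. With the neuron and Schwann cell covariates they were wider, at 0.856 for *Jag2*, 1.89 for *Dll4* and 0.435 for *Dll1*, and added up to 29.0% of the fitted *Jag1* loss. In that fit *Dll1* and *Dll4* had log2 fold changes of 0.11 and 0.07, with 95% intervals of -0.27 to 0.49 and -0.36 to 0.51. These limits cover the spread between mice in whole tissue and say nothing of the few cells in which a ligand might change.

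**Figure D2:**
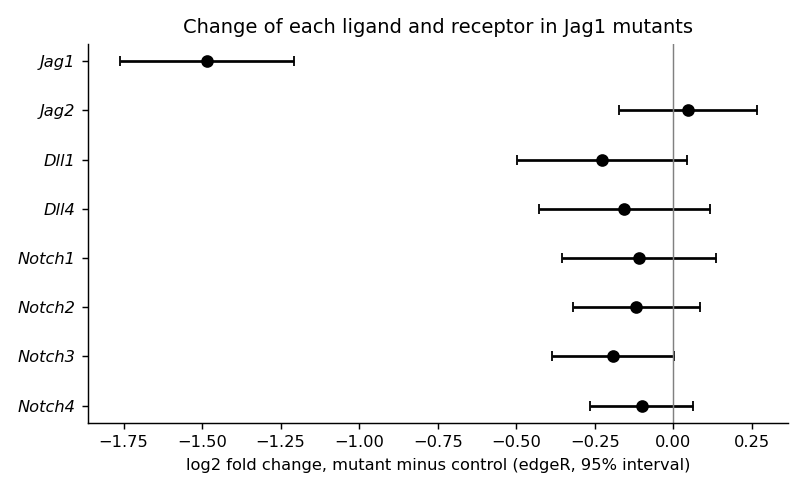
Log2 fold change of each gene, mutant minus control, as fitted by edgeR; points are estimates and bars are 95% intervals. The interval of *Jag1*, -1.76 to -1.21, lies apart from the other 7, which reach no higher than 0.26 and no lower than -0.50 and all reach 0.

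None of the receptors passed the test either, and all 4 had fitted values below 0. *Notch1*, the receptor through which hair cell fate is restricted in the embryo, ranged from 153 to 205 CPM in controls (median 186) and from 117 to 203 CPM in mutants (median 165). *Notch2*, the most abundant of the 8, ranged from 235 to 314 CPM in controls (median 294) and from 210 to 305 CPM in mutants (median 265). For both the ranges overlapped widely, with mutant 1 the lowest library of all. The log2 fold changes were -0.11 for *Notch1* (95% interval -0.36 to 0.14, edgeR adjusted p = 0.854) and -0.12 for *Notch2* (-0.32 to 0.08, adjusted p = 0.777).

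*Notch3*, best known from mural cells but also reported in the organ of Corti, came nearest to the threshold after *Jag1*. It ranged from 58.4 to 77.2 CPM in controls (median 67.0) and from 46.8 to 70.6 CPM in mutants (median 59.4). Its log2 fold change was -0.19 (95% interval -0.39 to 0.00, unadjusted edgeR p = 0.0508, adjusted 0.476; exact permutation p = 0.065). The endothelial receptor *Notch4* ranged from 33.0 to 40.6 CPM in controls (median 37.2) and from 31.9 to 42.0 CPM in mutants (median 33.6), and mutant 2 was above every control while the other 5 mutants lay between 31.9 and 35.2. The log2 fold change of *Notch4* was -0.10 (95% interval -0.27 to 0.06, edgeR adjusted p = 0.762).

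Levels of different genes were compared as CPM per kilobase of exon, since a longer transcript yields more reads. Among ligands in controls *Jag1* was at 17.5 ± 2.52, *Dll4* at 4.47 ± 0.357, *Jag2* at 3.29 ± 0.177 and *Dll1* at 1.06 ± 0.184 CPM per kilobase (SD, n = 6). *Jag1* was thus 3.91 times *Dll4*, *Dll4* 1.36 times *Jag2* and *Jag2* 3.09 times *Dll1*, and no neighbouring pair of ligands overlapped over the 6 controls. Among receptors *Notch2* was at 26.3 ± 3.06, *Notch1* at 12.6 ± 1.45, *Notch3* at 8.35 ± 0.832 and *Notch4* at 4.62 ± 0.347 CPM per kilobase, again with no overlap between neighbours. When ligands and receptors were ranked together, *Jag1* lay between *Notch2* and *Notch1*, and it overlapped *Notch1*, as *Notch4* did *Dll4*.

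The ranking depended in part on the length used. With the longest transcript of each gene, *Notch1* (18.9) and *Jag1* (18.2) changed places and overlapped, and *Dll4* (4.59) and *Jag2* (4.49) also overlapped. With the coding length, *Dll4* (8.36) was above *Notch4* (6.32). *Notch2* was first and *Dll1* last with each of the 3 lengths, and *Jag1* was the most abundant ligand with each.

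By reads per kilobase of exon *Jag1* still ranked first among the ligands in mutants, at 6.25 ± 1.13 CPM per kilobase. It was followed by *Dll4* at 4.01 ± 0.805, *Jag2* at 3.40 ± 0.597 and *Dll1* at 0.909 ± 0.0985. *Jag1* overlapped *Dll4* there and was above it in 5 of 6 mutants. The exception was mutant 1, with 4.16 for *Jag1* and 4.64 for *Dll4*. *Dll4* was above *Jag2* in 5 of 6, mutant 2 being the exception. That order turned with the longest transcript of each gene, by which *Jag2* (4.63) was above *Dll4* (4.12) in 4 of 6 mutants. The *Jag1* value in mutants may include reads from undeleted exons of a recombined allele, so it need not be intact transcript. By immunostaining at P6 the study reported a significant fall of JAG1 protein across the supporting cells of such mutants.

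The 4 ligands together ranged from 22.6 to 29.7 CPM per kilobase in controls and from 12.3 to 16.4 in mutants, without overlap. The means were 26.3 ± 2.60 and 14.6 ± 1.49 (SD, n = 6), so that mutants held 55.4% of the control sum. Without *Jag1* the sum was 8.82 ± 0.507 in controls and 8.32 ± 0.556 in mutants, or 94.3%, and these ranges overlapped. The share of *Jag1* in the ligand sum went from 66.2% ± 3.5 to 42.6% ± 4.38, and those of *Dll4* from 17.1% to 27.8%, *Jag2* from 12.6% to 23.4% and *Dll1* from 4.09% to 6.26%. The shares refer to a smaller sum in mutants, and the levels of *Dll4*, *Jag2* and *Dll1* themselves did not pass the test. In mutants the sum and the share of *Jag1* also count any reads from its undeleted exons.

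**Figure D3:**
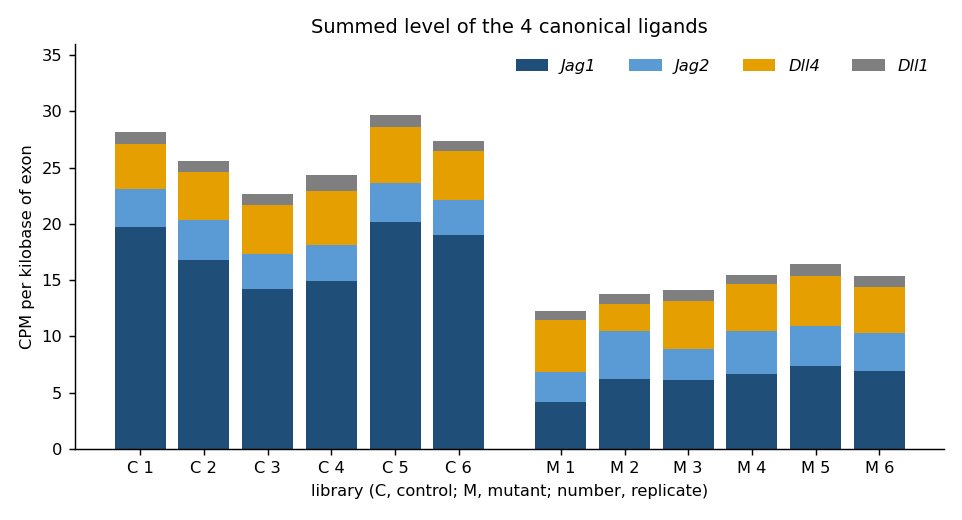
Summed CPM per kilobase of exon of the 4 ligands in each of 12 libraries, stacked by gene from 0 (C, control; M, mutant). The stacks are 22.6 to 29.7 high in controls and 12.3 to 16.4 in mutants, and the difference is in the lowest segment, *Jag1*.

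The receptor sum was 51.9 ± 4.93 CPM per kilobase in controls and 47.6 ± 5.84 in mutants (91.6%), with overlapping ranges. Its composition was close in the genotypes, with *Notch2* at 50.6% and 51.0%, *Notch1* at 24.3% and 24.4%, *Notch3* at 16.1% and 15.4% and *Notch4* at 8.99% and 9.13% in controls and mutants. The shares themselves depend on the length used. With the longest transcript, *Notch1* in controls was at 18.9 CPM per kilobase in place of 12.6, and *Notch2* at 27.0 in place of 26.3. The ratio of receptor to ligand transcript was 1.99 ± 0.304 in controls and 3.27 ± 0.354 in mutants (SD, n = 6), and the lowest mutant at 2.81 was above the highest control at 2.44. No test was made on these sums, since *Jag1*, which is known to be deleted, is part of them.

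Across libraries *Notch1*, *Notch2* and *Notch3* moved together within genotype. After the mean of each genotype was subtracted, the Pearson correlation over 12 libraries was 0.92 between *Notch1* and *Notch2*, 0.86 between *Notch1* and *Notch3* and 0.80 between *Notch2* and *Notch3*. *Notch4* stood apart from *Notch1* (0.03) and *Notch2* (-0.12). Among the ligands *Jag1* and *Jag2* had 0.56, while *Dll4* had -0.64 with *Jag2* and -0.69 with *Notch3*. Some of these values rested on few libraries. Without the 2 libraries farthest from the median of the first gene, *Jag1* with *Jag2* was at 0.15, *Jag2* with *Dll4* at 0.003 and *Notch2* with *Notch3* at 0.47, while *Dll4* with *Notch3* was at -0.80, *Notch1* with *Notch2* at 0.85 and *Notch1* with *Notch3* at 0.87. All pairs share the same libraries, with their depth and composition, and the values are a description.

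**Figure D4:**
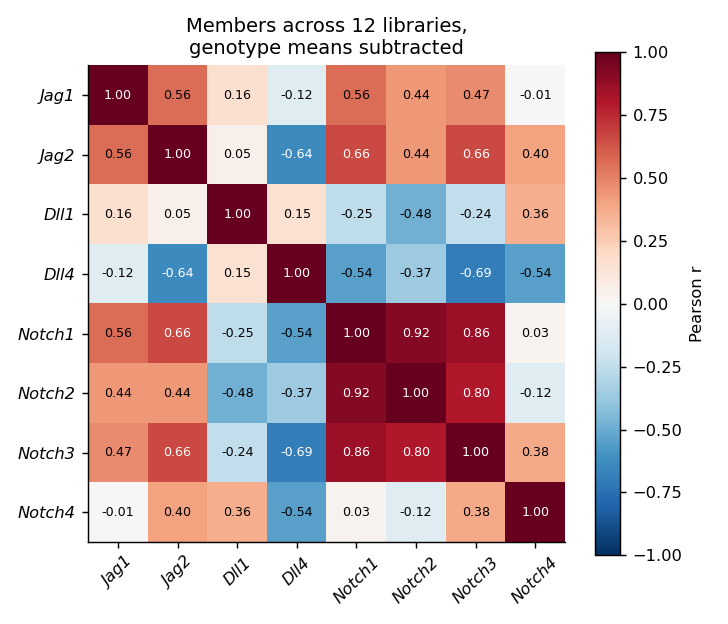
Pearson correlation of log2 CPM between the 8 genes over 12 libraries, with the mean of each genotype subtracted; colour runs from -1 (blue) to 1 (red). The block of *Notch1*, *Notch2* and *Notch3*, 0.80 to 0.92, is the highest off the diagonal, and *Dll4* is negative with *Jag2* and with all 4 receptors.

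*Notch1*, *Notch2* and *Notch3* also followed a property of the libraries. For each library a length score was taken as the median log2 deviation of genes with long transcripts, at least 5077 bases, minus that of genes with short ones, at most 2418 bases, the outer 25% of 11845 genes on each side. *Jag1*, *Jag2*, *Notch1*, *Notch2*, *Notch3* and *Notch4* were themselves among the genes with long transcripts, so the score is not independent of them. The score ranged from -0.25 to 0.14 in controls and from -0.46 in mutant 1 to 0.27 in mutant 2. Its correlation within genotype was 0.95 with *Notch1*, 0.88 with *Notch2*, 0.83 with *Notch3*, 0.61 with *Jag2*, 0.58 with *Jag1* and -0.63 with *Dll4*. It was -0.22 with *Dll1* and 0.05 with *Notch4*. Without the 2 libraries farthest from the median score it was 0.84 for *Notch1*, 0.70 for *Notch2*, 0.52 for *Notch3*, 0.35 for *Jag2*, -0.65 for *Dll4*, -0.47 for *Dll1*, -0.24 for *Jag1* and -0.11 for *Notch4*. Mutant 1, with the lowest score, was the lowest mutant for 6 of the 8 genes.

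With this score in the edgeR model, an alternative chosen after seeing the data, *Jag1* had a log2 fold change of -1.52 (adjusted p = 0.00027). The receptors had -0.16 for *Notch1* (edgeR adjusted p = 0.135), -0.15 for *Notch2* (0.214), -0.23 for *Notch3* (0.104) and -0.10 for *Notch4* (0.611), and none was called.

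**Figure D5:**
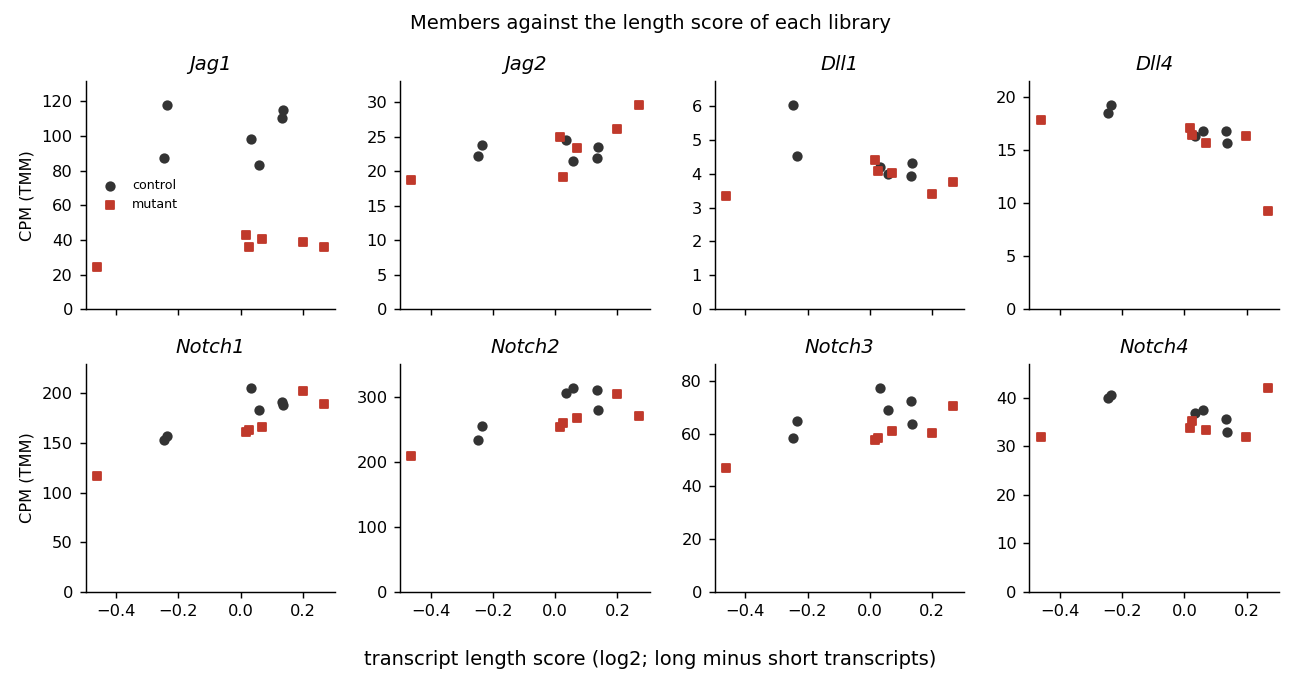
CPM of each gene against the length score of its library, which is the log2 deviation of long minus short transcripts; black circles are controls and red squares are mutants. *Notch1*, *Notch2* and *Notch3* climb with the score in both genotypes, *Dll4* declines, and *Jag1* is lower in every mutant than in every control.

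By the measure of genotype-centred correlation over 12 libraries, 14192 genes were searched for those most like each member. *Jag1* was followed most closely by *Jph1* (r = 0.96), *Bcl2* (0.96) and *Dach1* (0.94). The nearest to *Jag2* were *Ano4*, *Nedd9* and *Htr2a* (0.92 to 0.93), to *Dll1* were *Btg1*, *Tspan5* and *Ccnjl* (0.88 to 0.90), and to *Dll4* were *Msra*, *Armc7* and *Sfxn4* (all 0.94). *Notch1* was nearest to *Atrn* (0.98), *Nkain3* and *Rapgef6* (both 0.97), and *Notch2* to *Nrp2*, *Grid2ip* (both 0.97) and *Sned1* (0.96). *Notch3* was nearest to *Kansl1* (0.97), *Ptprm* and *Usp7* (both 0.96), and *Notch4* to *Cwf19l1*, *Thsd1* (both 0.90) and *Mstn* (0.86). These are the highest of 14192 values over only 12 libraries, so unrelated genes can also reach high values, and no chance level was computed. Without the 2 libraries farthest from the median of the member, they ran from 0.68 (*Sfxn4* with *Dll4*) to 0.96 (*Ptprm* with *Notch3*). Against the marker lists, the value of *Jag1* was 0.72 with supporting cell markers and 0.55 without the 2 libraries farthest from the median marker level. *Notch4* had 0.58 with endothelial markers, 0.31 without 2 libraries, and 0.55 with dividing cell markers. *Dll4* had -0.15 with endothelial markers and *Notch3* 0.12 with mural markers. The means of those lists spanned only 5.44 to 5.76 and 4.27 to 4.64 log2 CPM over the libraries. The supporting cell, hair cell and mesenchyme lists also spanned little, at 7.61 to 8.01, 3.40 to 3.86 and 8.68 to 9.16 log2 CPM. With such narrow spans, the cells that express a gene cannot be told from these values, whether high or low. *Notch2* and *Notch1* had 0.73 and 0.67 with hair cell markers, and 0.40 and 0.05 without 2 libraries. *Dll1* had -0.66 with neuron markers (-0.58 without 2 libraries) and -0.59 with Schwann cell markers (-0.16). It also had -0.68 with stria vascularis markers (-0.27) and -0.62 with red blood cell markers (-0.49). *Notch3* had 0.64 with mesenchyme markers (0.73 without 2 libraries).

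The rest of the pathway was described by 70 further genes in 5 lists. Of these 2 were called, both lower in mutants, beside 0.190% of all tested genes. Of the 10 other ligands, which included the Delta-like protein *Dll3* and the related *Dlk1*, *Dlk2* and *Dner*, none was called and none had an unadjusted edgeR p under 0.05, so the wider ligand family showed no rise past the test. *Dll3* was near the limit of detection, at 0.0623 to 0.516 CPM in controls and 0.119 to 0.424 CPM in mutants. Of the 16 genes of ligand and receptor traffic, none was called, and 1 had an unadjusted p under 0.05: *Neurl1b*, an E3 ligase that drives ligand endocytosis, went from 4.81 to 4.00 CPM (log2 fold change -0.26, edgeR adjusted p = 0.416).

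Of the 15 genes of glycosylation and cleavage, 1 was called, beside 0.190% of all tested genes called and 0.997% without overlap of the genotypes. *Lfng*, the glycosyltransferase Lunatic fringe that modifies the receptors and so biases them between Delta and Jagged ligands, fell from 57.3 ± 2.50 to 42.0 ± 4.51 CPM (SD, n = 6 each), and the highest mutant at 48.2 CPM was below the lowest control at 55.0 CPM (log2 fold change -0.45, edgeR adjusted p = 0.0204). Its call was lost with the neuron and Schwann cell covariates (log2 fold change -0.31) and without any 1 of controls 2, 4, 5 and 6 or mutants 2 and 6 (adjusted p up to 0.0747). Past the unadjusted threshold were also *Furin*, the convertase that makes the first cut of the receptors, with -0.20 (adjusted p = 0.165), and *Aph1b*, a gamma-secretase subunit, with 0.57 (adjusted p = 0.199). Of the 14 genes of the nuclear complex none was called, and *Fbxw7*, which marks the intracellular domain for degradation, had 0.14 (adjusted p = 0.405).

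Of the 15 target genes 1 was called and 12 had a fitted value below 0, with a list median of -0.14. Over all tested genes 0.190% were called, 0.997% did not overlap between the genotypes and 49.1% were lower. *Hey1*, a repressor switched on by Notch, fell from 52.3 ± 4.81 to 31.4 ± 3.81 CPM (SD, n = 6 each), with no mutant above 34.3 and no control below 43.9 CPM (log2 fold change -0.74, edgeR adjusted p = 0.0020). *Hes5*, another such repressor and a rare transcript here, had means of 0.455 ± 0.173 and 0.174 ± 0.0648 CPM in controls and mutants, and the ranges overlapped (log2 fold change -1.36, edgeR adjusted p = 0.0958). With the neuron and Schwann cell covariates the call of *Hey1* was lost as well (-0.76, edgeR adjusted p = 0.281). *Heyl*, *Ccnd1* and *Gfap* had -0.23, -0.26 and -0.39 (edgeR adjusted p = 0.129, 0.422 and 0.424). Over the 70 genes 10 had an unadjusted p under 0.05, 2 higher and 8 lower, the median was -0.06 and 52 were lower. The matching values over all genes were 10.6%, a median of 0.00 and 49.1% lower.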

How the data were processed

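RNA was taken from the cochlear sensory epithelium of 12 mice, 6 per genotype, grouped by the labels, and single-end reads were generated. Raw counts for each gene symbol were deposited, and the submitters' processing notes name Trimmomatic 0.32, STAR 2.4.2a, HTSeq 0.9.1 and GRCm38.p4. The annotation and strand setting are not given in the sources used here. The authors' own DESeq2 comparison (mean, log2 fold change, error and p-values) was not used.

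Genes averaging at least 5 counts per library were compared by edgeR 4.0.16 in R 4.3.3 (TMM, quasi-likelihood F-test, robust, no covariates), with Benjamini-Hochberg adjustment over 18459 genes and calls at an adjusted p under 0.05. CPM uses TMM factors. Exact two-sided permutation tests used log2(CPM + 0.1), and correlations used log2 CPM with a prior count of 2. Exon lengths came from GENCODE M21. The fits were tested on simulated data. The 11 marker lists were endothelial, mural, hair cell, supporting cell, neuron, Schwann cell, macrophage, mesenchyme, stria vascularis, red blood cell and dividing cell. The members and lists were chosen with earlier results of these data known. Named genes were the 8 members, pathway genes with an unadjusted p under 0.05, and for each member the 3 genes of mean count at least 50 with the largest correlation. *Dlk1*, *Dlk2*, *Dner* and *Dll3* were named after their values were seen. Alternatives were DESeq2 1.42.0, limma-voom 3.58.1, other normalizations and filters, a replicate block, marker and length covariates, other lengths, another pseudocount, and leaving out each mouse. Depth was even, and same-genotype libraries differed beyond counting error (chi-square per degree of freedom 13.4 to 70.6 over 30 pairs), so each was counted as 1 replicate.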

Additional observations from a re-analysis of the deposited data

Results flagged for a closer look

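Of 16 sets of 6 values, 1 for each gene and genotype, 3 held a library that stood apart from its group by more than Dixon's 95% critical value, where chance gives about 5% of sets. *Dll1* in control 4 was at 6.01 CPM, with the other controls between 3.92 and 4.51. *Dll4* in mutant 2 was at 9.31 CPM, with the other mutants between 15.7 and 17.9. *Notch4* in mutant 2 was at 42.0 CPM, with the other mutants between 31.9 and 35.2.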

How the results depend on the processing

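*Jag1* was lower in mutants under every alternative run, and its call was lost in 1 of them, the fit with neuron and Schwann cell covariates (-1.43, edgeR adjusted p = 0.0833). In that fit *Jag2*, *Dll1* and *Dll4* changed sign, to -0.026, 0.11 and 0.073, and 1 gene was called in place of 35. The cause was not tested. When each mouse was left out in turn, *Jag1* ranged from -1.54 to -1.39 (edgeR adjusted p at most 0.00218) and *Jag2* from -0.026 to 0.11, the former without mutant 2. No alternative run made a call of *Jag2*, *Dll1*, *Dll4* or a receptor. *Lfng* and *Hey1* kept their sign, and *Lfng* lost its call without any 1 of 6 mice and both lost it with the marker covariates. DESeq2 also called *Furin*, *Heyl* and *Hes5*, and *Aph1b* was called without control 1 (0.78, edgeR adjusted p = 0.0131).

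The number of genes called was 619 with DESeq2, 19 with limma-voom, 57 without a filter, 63 with the length covariate added after seeing the data, and 14 to 356 when a mouse was left out. The lowest counts were 14 without control 2 or control 6, 15 without control 5 or mutant 6, 17 without control 4 or mutant 2 and 22 without control 3, and the highest were 54, 66 and 356 without mutants 1, 4 and 5. With the replicate block it was 131, and *Jag1* had -1.49. Same-numbered mice had correlations from -0.19 to 0.27 and 4 of 12 libraries matched their own number best, so the numbers were not taken to pair the mice.

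With coding lengths the ligand sums were 44.4 and 25.6 CPM per kilobase in controls and mutants, 16.6 and 15.6 without *Jag1*, and *Jag1* made up 62.5% of the control sum. With the longest transcript the mutant sum was 16.3, and without *Jag1* the sums were 10.3 and 9.83. Depth limits *Dll1* the most, at 109 to 193 reads per library.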

Other observations

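The marker lists not given above were as follows. On the log2 scale hair cell markers were 0.04 higher in mutants (exact permutation p = 0.649), and macrophage markers 0.25 lower (exact permutation p = 0.0346, adjusted 0.0762). Mesenchyme, red blood cell, stria vascularis and dividing cell markers were 0.11, 0.11, 0.02 and 0.02 lower in mutants, with exact permutation p-values of 0.214, 0.835, 0.84 and 0.803.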
